A study of Mus musculus with 12 samples.

Results

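Hpgd, the gene of the enzyme that begins the breakdown of prostaglandins, and 9 further genes that make, take up or break down prostanoids and leukotrienes were followed across the cell classes of the liver of embryonic and newborn mice. The 10 genes (Hpgd, Ptgs1, Ptgs2, Ptges, Hpgds, Alox5, Alox5ap, Ltc4s, Lta4h and Slco2a1) were taken by their symbols from the 31053 genes of the embryonic matrices. All 10 were also among the 22597 genes of the newborn matrices. Hpgd was chosen because its counts in the embryos (stage E16.5) had been seen to be higher in homozygous mutant livers, and the others because they belong to the same pathways. The difference of Hpgd between genotypes is therefore given as a description.

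The livers came from mice with a wild-type or a mutant (Nodder, Ndr) allele of Jag1, the gene of a Notch ligand, and their cells were sequenced one by one with 10x Genomics droplets, at embryonic stage E16.5 and at postnatal day 3 (P3). Per the labels, the genotypes were Jag1+/+, Jag1Ndr/+ and Jag1Ndr/Ndr (written Jag1Ndr/Nd in the strain label), all from crosses of Jag1Ndr/+ with Jag1Ndr/+, and each genotype and stage had 2 individuals. At P3 the homozygotes were picked as jaundiced pups. The labels name no treatment. Livers were digested with enzymes, which for the embryos but not the pups included TrypLE. A magnetic column then took out dead cells.

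The 12 deposited matrices held 9 separate libraries. At E16.5 the matrices of Jag1+/+ replicate 2 and Jag1Ndr/+ replicate 2 were identical, so they were counted once, as the shared library, beside 1 further Jag1+/+, 1 Jag1Ndr/+ and 2 Jag1Ndr/Ndr libraries. At P3 the matrix of Jag1+/+ replicate 1 shared 19927 barcodes with the matrix of Jag1Ndr/Ndr replicate 1, or 68.4% of the smaller matrix, and 18105 with that of Jag1Ndr/Ndr replicate 2. The matrix of Jag1+/+ replicate 2 held all 15754 barcodes of Jag1Ndr/+ replicate 2 and shared 16145 with Jag1Ndr/Ndr replicate 2. The P3 libraries are therefore called A (the Jag1+/+ replicate 1 matrix, genotype unclear), B (the Jag1+/+ replicate 2 matrix, genotype unclear), C (Jag1Ndr/Ndr replicate 1 without the barcodes of A, found only under the homozygous label) and D (Jag1Ndr/+ replicate 1). Library C had 15145 barcodes and none under 1000 unique molecular identifiers (UMIs, counted RNA molecules), nor had the 5 E16.5 libraries, while A, B and D had 2522 to 3414 such barcodes each. Because 2 of 4 P3 genotypes are unclear, P3 libraries were not grouped by genotype, and the tested comparison is that of the 4 P3 with the 5 E16.5 libraries.

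Total counts were 30087760 to 288658950 UMIs per matrix. After removal of barcodes under 1000 UMIs or with over 15% mitochondrial UMIs and then of doublets, 99731 of 113376 passing cells were kept at E16.5 and 64658 of 71117 at P3. Of these, 95055 fell into 11 named classes at E16.5 and 59541 into 13 at P3; the others lay in clusters left unnamed and enter no class value. Median depth was 5325 to 9256 UMIs per cell at E16.5 and 2961 to 6235 at P3. Erythroid-like cells were the most numerous class (65187 cells at E16.5 and 28812 at P3), and hepatocyte-like cells, which mark the tissue as liver, numbered 2976 and 1389. Classes were named after clustering from lists of marker genes and are written with "-like". Values are CPM, the counts of a gene per 1000000 UMIs of the summed cells of a class in a library, over the 22519 genes listed at both stages, and they were not divided by transcript length, so levels are compared between classes and stages and not between genes. Stage cannot be told apart from the digestion, from the software version (3.1.0 at E16.5 and 3.0.2 at P3), from the gene list, from the genotype mix or from cell depth: the 5 E16.5 libraries and C held no cell under 2000 UMIs in any class, while A, B and D did.

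Prostanoid synthesis begins when phospholipase A2 frees arachidonic acid from membranes and a cyclooxygenase, Ptgs1 (COX-1, present in many resting cells) or Ptgs2 (COX-2, quickly induced by stimuli), turns it into prostaglandin H2. Terminal synthases such as Ptges and Hpgds then make prostaglandin E2 and prostaglandin D2. The carrier Slco2a1 takes prostaglandins up into cells, where Hpgd (15-hydroxyprostaglandin dehydrogenase) oxidises them to products with little activity. In the other branch, 5-lipoxygenase (Alox5), with its activating protein Alox5ap, makes leukotriene A4, which Lta4h turns into leukotriene B4, a neutrophil attractant, and Ltc4s into leukotriene C4, the first of the cysteinyl leukotrienes of mast cells, basophils and macrophages. In the fetal and newborn liver, blood formation takes place beside the developing liver tissue, so producers and consumers of these lipids lie close together.

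In GRCm38, with the GENCODE vM21 annotation of the same build, all 10 genes are protein-coding. Hpgd (ENSMUSG00000031613) lies at chr8:56294585-56321043 on the plus strand, Ptgs1 (ENSMUSG00000047250) at chr2:36230426-36252272 on the plus strand and Ptgs2 (ENSMUSG00000032487) at chr1:150100031-150108227 on the plus strand. Ptges (ENSMUSG00000050737) lies at chr2:30889471-30929863 on the minus strand, Hpgds (ENSMUSG00000029919) at chr6:65117293-65144908 on the minus strand and Slco2a1 (ENSMUSG00000032548) at chr9:102988712-103096002 on the plus strand. Of the leukotriene genes, Alox5 (ENSMUSG00000025701) lies at chr6:116410077-116461178 on the minus strand, Alox5ap (ENSMUSG00000060063) at chr5:149264767-149288153 on the plus strand, Lta4h (ENSMUSG00000015889) at chr10:93453411-93484875 on the plus strand and Ltc4s (ENSMUSG00000020377) at chr11:50236461-50238616 on the minus strand.

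The promoter windows of 3 genes are shown: Hpgd, the gene the set is built around, and both cyclooxygenases, which begin prostanoid synthesis and differed between the stages. Each window is 300 bases of RefSeq's GRCm38.p6, from 250 bases before to 50 bases after the start that RefSeq annotates, which for Hpgd lies upstream of the GENCODE start given above, on the plus strand (chr8:56294302-56294601 for Hpgd, chr2:36230176-36230475 for Ptgs1 and chr1:150099781-150100080 for Ptgs2). Capitals mark matches to the motifs searched.
Hpgd: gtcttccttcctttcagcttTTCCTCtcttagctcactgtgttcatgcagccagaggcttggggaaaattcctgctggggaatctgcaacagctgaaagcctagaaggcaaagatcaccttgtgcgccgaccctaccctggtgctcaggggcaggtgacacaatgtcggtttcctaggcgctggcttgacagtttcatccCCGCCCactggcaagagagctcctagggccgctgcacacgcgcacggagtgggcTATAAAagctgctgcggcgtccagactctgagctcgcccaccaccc
Ptgs1: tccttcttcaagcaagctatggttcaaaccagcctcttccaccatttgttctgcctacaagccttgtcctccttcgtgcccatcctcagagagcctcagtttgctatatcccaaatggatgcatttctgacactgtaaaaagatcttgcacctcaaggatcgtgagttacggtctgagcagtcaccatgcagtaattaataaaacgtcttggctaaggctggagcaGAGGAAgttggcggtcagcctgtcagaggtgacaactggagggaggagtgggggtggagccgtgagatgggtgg
Ptgs2: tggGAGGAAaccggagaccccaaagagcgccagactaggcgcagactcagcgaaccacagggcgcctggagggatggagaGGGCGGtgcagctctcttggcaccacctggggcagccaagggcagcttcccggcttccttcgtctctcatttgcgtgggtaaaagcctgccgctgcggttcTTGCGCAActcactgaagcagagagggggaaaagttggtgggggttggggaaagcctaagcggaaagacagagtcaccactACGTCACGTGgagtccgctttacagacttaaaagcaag

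Exact matches to 8 motifs were searched on both strands in the 9 of 10 genes with a window in the RefSeq table, which had none for Alox5ap, and in all 32851 windows of the same length. The TATA box letters TATAAA were in 2 of 9 windows (Hpgd and Slco2a1) and in 13.6% of all windows. The matches begin at 4 (Hpgd) and -29 (Slco2a1) bases from the RefSeq start, so that of Hpgd lies after it. The cyclic AMP response element core TGACGT and the E-box CACGTG were in the Ptgs2 window only, where they overlap (first bases 263 and 267 of the window), against 7.51% and 7.15% of all windows. Both lie after the RefSeq start, at 12 and 16 bases from it. The Ptgs2 window was also the only one of the 9 with the C/EBP palindrome TTGCGCAA (first base 182), found in 0.183% of all windows. The ETS core GAGGAA was in 9 of 9 windows against 28.3% of all, the GC box GGGCGG was in 5 of 9 against 35.7%, and the AP-1 letters TGACTCA (5.20% of all) and the GATA letters AGATAA (11.2% of all) were in none. These are matches of letters, not measured binding sites.

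Across the 10 classes with at least 20 cells in every library of both stages, 63 of the 100 pairs of gene and class passed the filter on low counts, and 37 did not. At P3, 13 of the 63 pairs were higher and 16 were lower than at E16.5, and 34 were not called (edgeR quasi-likelihood test, Benjamini-Hochberg adjusted p under 0.05 over all 100813 pairs of gene and class). The background is high: 47.0% of all pairs were called, 23.6% higher and 23.4% lower, so the number of called pairs among these genes is close to that of genes in general. By class the share called was 33.2% in endothelial-like, 40.4% in megakaryocyte-like and 41.3% in hepatocyte-like cells, 46.4% in conventional dendritic-like and 49.4% in monocyte-like cells, and 49.7% in erythroid-like and 49.8% in neutrophil-like cells. It reached 50.3% in B-like, 52.6% in basophil and mast-like and 54.8% in macrophage-like cells. The median log2 fold change of the 63 pairs was -0.13, against 0.01 for all pairs. The results below are therefore about single genes in single classes. With libraries A and B left out, 7 of 66 tested pairs were higher and 19 lower, beside 18.7% and 19.1% of all pairs in that fit. With cells of at most 5% mitochondrial UMIs 8 of 57 were higher and 16 lower, beside 22.2% and 22.1%.

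**Figure D1:**
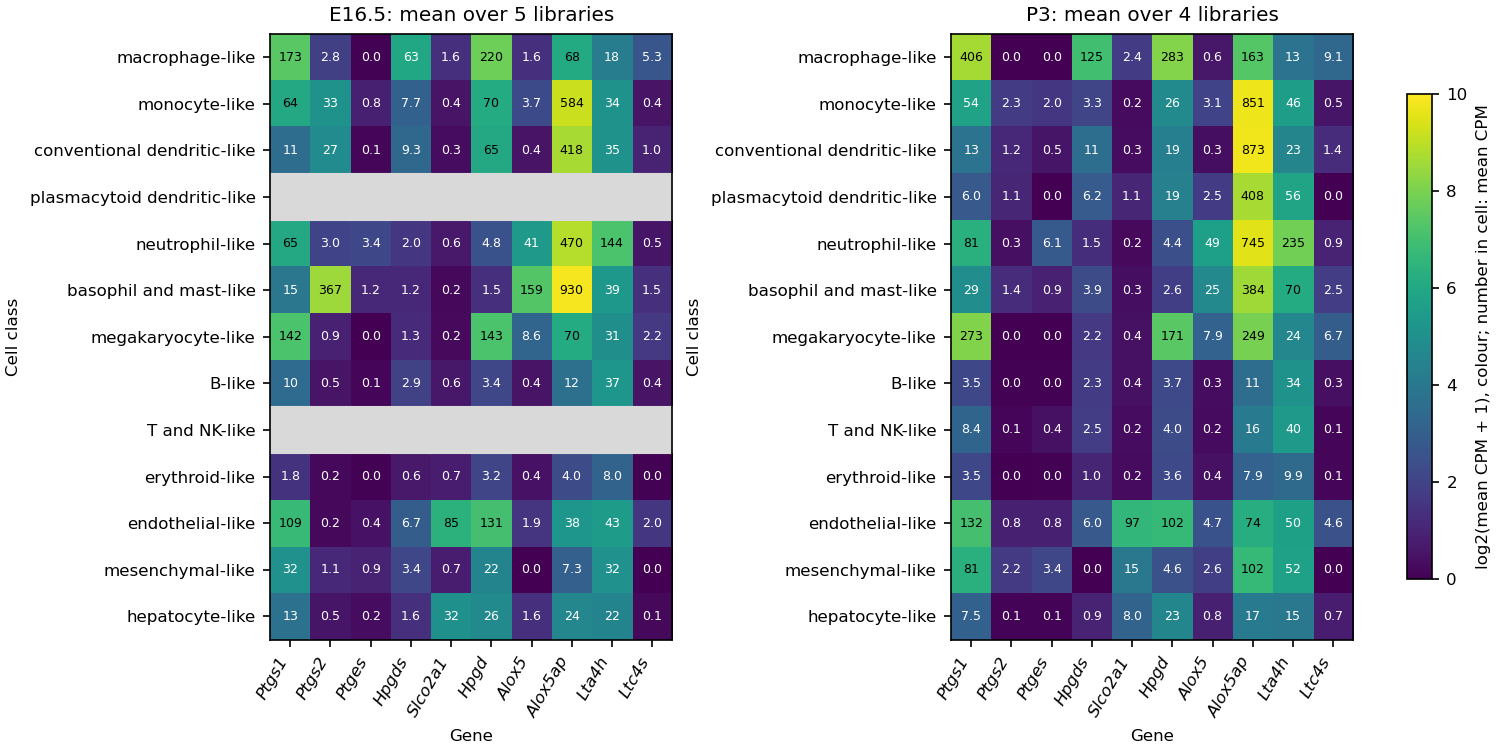
Mean level of each of the 10 genes (columns) in each cell class (rows) at E16.5 (left, 5 libraries) and P3 (right, 4 libraries), with the colour giving log2(mean CPM + 1), the number the mean CPM, and grey a class not named at that stage. Ptgs2 is seen mainly in basophil and mast-like cells at E16.5 (mean 367 CPM), Slco2a1 in endothelial-like cells, and Alox5ap across the myeloid classes.

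Of the cyclooxygenases, Ptgs1 was broadly detected and was higher at P3 than at E16.5 in macrophage-like and megakaryocyte-like cells, and lower in B-like cells. It was highest in macrophage-like cells at both stages, followed by megakaryocyte-like and endothelial-like cells. At E16.5 the levels were 173 ± 37.4, 142 ± 44.7 and 109 ± 17.6 CPM (SD, n = 5). Megakaryocyte-like cells did not differ from either of the others beyond their spread, and endothelial-like cells stood above neutrophil-like cells at 64.9 ± 20.8 CPM. At P3 the 3 levels were 406 ± 57.0, 273 ± 37.2 and 132 ± 24.1 CPM (SD, n = 4), each apart from the next by more than their summed SDs.

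Ptgs1 in macrophage-like cells was at 190, 224, 122, 163 and 168 CPM at E16.5, in an order kept throughout: first Jag1+/+ replicate 1, then the shared library, then Jag1Ndr/+ replicate 1, and last both Jag1Ndr/Ndr libraries in the order of their replicate numbers. In P3 libraries A to D it was at 331, 418, 404 and 469 CPM. All 4 P3 libraries were above all 5 E16.5 libraries. The clusters of the class differed widely: at E16.5 cluster 2 (802 cells) held 329 CPM and cluster 1 (3513 cells) 57.5 CPM, and the 5 P3 clusters held 45.4 to 555 CPM. The log2 fold change was 0.76 ± 0.111 (SE; edgeR adjusted p = 1.9e-04). It is smaller than the ratio of the CPM means because the fit also scaled the libraries by TMM (trimmed mean of M-values); with library sizes only it was 1.23. In this class the 11 macrophage markers summed to 6905.7 to 9305.7 CPM at E16.5 and 24393.2 to 30890.1 CPM at P3, and the 12 erythroid markers to 223786.0 to 418755.9 CPM and 104986.5 to 235778.7 CPM. The part of either in the stage differences of this class was not tested. With cells of at most 5% mitochondrial UMIs only, the E16.5 means in macrophage-like cells were 92.4 CPM for Ptgs1, 36.7 CPM for Hpgds and 146 CPM for Hpgd, and the P3 mean of Ptgs1 was 316 CPM.

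In megakaryocyte-like cells, the platelet precursors, Ptgs1 was at 137, 212, 122, 91.0 and 148 CPM at E16.5 and at 285, 218, 292 and 298 CPM at P3. The groups did not overlap, with library B nearest to the E16.5 values, and the log2 fold change was 0.86 ± 0.166 (SE; edgeR adjusted p = 7.4e-04). Median depth of these cells was 3825, 12256, 6686, 3242 and 6279 UMIs at E16.5 and 19150, 4456, 15695 and 15409 UMIs at P3. Its part in any stage difference of megakaryocyte-like cells was not tested. In B-like cells Ptgs1 was lower at P3, at low levels, from 10.2 ± 2.82 CPM (SD, n = 5) to 3.45 ± 1.07 CPM (SD, n = 4). Their log2 fold change was -1.63 ± 0.229 (SE; edgeR adjusted p = 1.4e-04). The stage effects of macrophage-like and megakaryocyte-like cells exceeded that of B-like cells by 2.56 and 2.31 in log2(CPM + 1). Such differences between classes are given as sizes only, since the pairs were picked for opposite calls in the same libraries.

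Ptgs1 also passed the test in basophil and mast-like cells (14.6 ± 7.94 to 28.6 ± 4.15 CPM, log2 fold change 0.73 ± 0.286, edgeR adjusted p = 0.0440). This call is weak. It passed in 9 of 18 alternatives, and was lost without any one of Jag1+/+ replicate 1, the shared library, Jag1Ndr/Ndr replicate 1 or 2, or libraries A, C or D. In the P3 cluster of basophil-like cells alone the level was 15.8 ± 3.13 CPM.

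**Figure D2:**
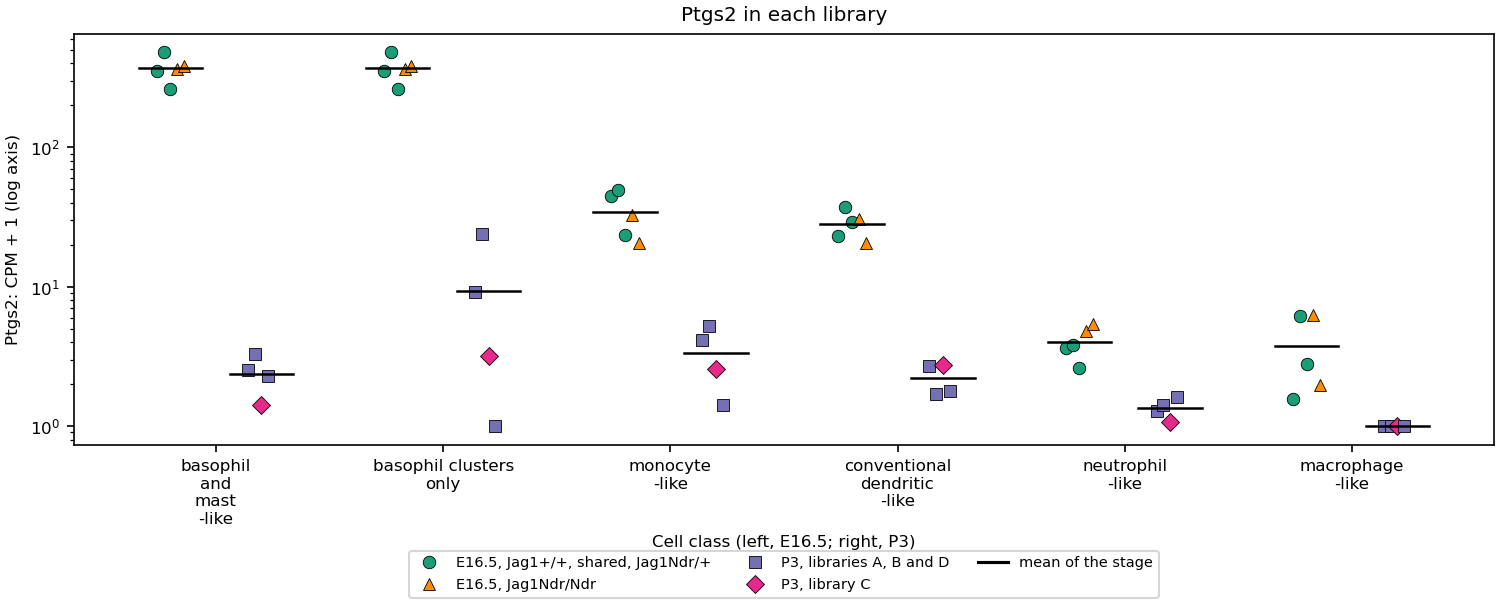
Ptgs2 level (CPM + 1, log axis) in each library, 1 point per library, for 5 classes and for the basophil-led clusters alone, with E16.5 on the left and P3 on the right of each class and a line at the mean of the stage. In basophil and mast-like cells the 5 E16.5 libraries lie at 259 to 478 CPM and the 4 P3 libraries at 0.421 to 2.31 CPM.

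Ptgs2, the inducible cyclooxygenase, was lower at P3 in all 4 classes in which it was tested. In these classes it passed the filter on low counts through its E16.5 counts. Classes low at E16.5 could not be tested, so the number of classes supports nothing and the sizes are described. In basophil and mast-like cells it was at 351, 478, 259, 366 and 382 CPM at E16.5 and at 1.52, 2.31, 0.421 and 1.27 CPM in libraries A to D. The log2 fold change was -8.14 ± 0.266 (SE; edgeR adjusted p = 1.1e-11), and none of the other 8362 genes tested in this class had a lower one. The class was not the same mixture of cells at both stages. At E16.5 it was 1 cluster of 241 cells. At P3 it was a cluster of 220 cells led by basophil genes (Prss34, Mcpt8) and a larger one of 868 cells led by Hmga2, Cd34 and Mpo, genes of progenitors, beside the mast cell proteases Cma1, Tpsb2 and Mcpt4. In the P3 basophil-led cluster alone, a choice made after the data were seen, Ptgs2 was at 8.13, 22.9, 2.19 and 0 CPM (16 UMIs in all, against 1327 at E16.5). The log2 fold change was then -5.62 ± 0.363 (SE; edgeR adjusted p = 1.6e-08), so the difference was smaller and still past the threshold.

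In conventional dendritic-like cells Ptgs2 was at 22.2, 36.3, 28.3, 29.8 and 19.6 CPM at E16.5 and at 1.69, 0.688, 1.76 and 0.776 CPM at P3 (log2 fold change -4.37 ± 0.345, SE; edgeR adjusted p = 3.9e-07). Of 8743 genes tested there, 14 had a lower fold change. This class differed in make-up between the stages. Its own markers summed to 1224.3 to 3493.6 CPM at E16.5 and 9514.6 to 16108.6 CPM at P3, and plasmacytoid dendritic markers to 1273.5 to 2597.1 CPM and 223 to 308 CPM; plasmacytoid dendritic-like cells were a class of their own at P3 only. The part of this in any stage difference of conventional dendritic-like cells was not tested. In monocyte-like cells Ptgs2 was at 44.0, 48.0, 22.3, 31.7 and 19.6 CPM and at 3.14, 4.20, 1.57 and 0.414 CPM (log2 fold change -3.71 ± 0.359, SE; edgeR adjusted p = 6.9e-06), with 41 of 10049 genes lower. In neutrophil-like cells the means were 3.04 and 0.344 CPM (log2 fold change -3.37 ± 0.413, SE; edgeR adjusted p = 5.3e-05). Within this class, E16.5 cluster 7, led by Retnlg, held 39.5 CPM (10.0 to 84.3 CPM, 114 UMIs), and P3 cluster 26, also led by Retnlg, held 30.5 CPM (17 UMIs) in the 2 libraries with at least 20 of its cells, A and B. The other neutrophil-like clusters averaged at most 6.80 CPM at E16.5 and 1.05 CPM at P3. In none of the 4 classes did the stages overlap. Macrophage-like cells had 0 UMIs of Ptgs2 in all 4 P3 libraries, which allows up to 0.163 CPM (3 counts over the group), and 0.569 to 5.25 CPM at E16.5, below the filter.

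Ptgs2 is itself an immediate early gene, one of those transcribed within minutes of a stimulus, tissue digestion included. A list of 12 other genes of this kind (Fos, Jun, Egr1 and others), added after the Ptgs2 values were seen, had members that were lower at P3 in each class tested. In basophil and mast-like cells 11 of 11 tested were lower at P3 and the list summed to 5471.7 to 7407.0 CPM at E16.5 against 1082.8 to 1408.8 CPM at P3. In monocyte-like cells 11 of 12 were lower (4134.2 to 4903.3 CPM against 1698.9 to 2004.9 CPM), in conventional dendritic-like cells 9 of 12 (2659.3 to 3370.4 against 1659.4 to 1941.6 CPM) and in neutrophil-like cells 8 of 12 were lower and 1 higher (762 to 1433.0 against 568 to 862 CPM). Of all genes tested, 26.3%, 24.8%, 23.0% and 24.5% were lower in these 4 classes. Where Ptgs2 was below the filter, 11 of 12 genes were lower in hepatocyte-like cells (19.7% of all genes; 1111.8 to 2012.9 against 181 to 345 CPM) and 9 of 12 in endothelial-like cells (16.6%; 2012.7 to 3215.5 against 965 to 1349.9 CPM). In the other 4 classes the summed levels of the stages overlapped, as they did in neutrophil-like cells. There, 8 of 12 genes were lower in erythroid-like (24.7% of all genes; 62.6 to 214 against 77.0 to 149 CPM) and macrophage-like cells (28.0%; 1530.0 to 2000.5 against 1378.9 to 1817.6 CPM), 8 of 11 in megakaryocyte-like cells with 1 higher (20.2%; 1202.6 to 2337.3 against 607 to 1361.7 CPM) and 6 of 12 in B-like cells (25.5%; 507 to 658 against 285 to 603 CPM). The part of digestion in the Ptgs2 difference was not tested.

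The terminal synthases were more restricted. Hpgds, the haematopoietic synthase of prostaglandin D2, was highest in macrophage-like cells, where it was higher at P3 than at E16.5. It was at 69.0, 67.1, 39.8, 63.9 and 73.2 CPM at E16.5 and at 94.3, 129, 122 and 155 CPM at P3 (log2 fold change 0.52 ± 0.132, SE; edgeR adjusted p = 0.00688). The P3 libraries were all above the E16.5 libraries. By cluster it was at 119 CPM in cluster 2 and 20.5 CPM in cluster 1 at E16.5, and at 15.9 to 169 CPM at P3, so the share of each cluster enters the class level; its part in the stage differences of Ptgs1 and Hpgds was not tested. In monocyte-like cells Hpgds was lower at P3, from 7.70 ± 1.29 CPM (SD, n = 5) to 3.27 ± 1.78 CPM (SD, n = 4), also without overlap (log2 fold change -1.45 ± 0.305, SE; edgeR adjusted p = 0.00192). The stage effects of these 2 classes differed by 2.11 in log2(CPM + 1). In the other classes no E16.5 library was above 12.4 CPM.

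Ptges, the inducible synthase of prostaglandin E2, was close to the detection limit everywhere. It passed the filter in neutrophil-like cells only, at 3.59, 4.36, 2.29, 3.01 and 3.94 CPM at E16.5 and at 5.48, 4.60, 7.44 and 6.96 CPM at P3. The groups did not overlap and the log2 fold change was 0.68 ± 0.175 (SE; edgeR adjusted p = 0.00725). In megakaryocyte-like cells no Ptges UMI was counted, which allows up to 0.395 CPM at E16.5 and 0.429 CPM at P3 (3 counts over the group).

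Slco2a1, the uptake carrier, belonged to 2 classes at E16.5, endothelial-like at 84.6 ± 21.5 CPM and hepatocyte-like at 31.5 ± 5.10 CPM (SD, n = 5), with every other class at most 1.57 CPM on average. At P3 mesenchymal-like cells, a class too small to be tested, also held Slco2a1, at 31.5, 10.9, 18.0 and 0 CPM in libraries A to D (20, 3, 2 and 0 UMIs). In endothelial-like cells it was at 97.9, 101, 51.1, 74.8 and 98.6 CPM at E16.5 and at 82.2, 99.6, 101 and 103 CPM at P3. These overlapped, and the log2 fold change of 0.07 ± 0.157 (SE) was not called (edgeR adjusted p = 0.745). In hepatocyte-like cells it was lower at P3, at 34.4, 37.6, 24.3, 32.4 and 29.0 CPM at E16.5 against 10.9, 6.33, 9.89 and 4.76 CPM. The groups lay far apart, with a log2 fold change of -1.69 ± 0.216 (SE; edgeR adjusted p = 4.8e-05). The hepatocyte-like clusters were not alike: of the E16.5 clusters, number 32 held 45.9 CPM and number 0 held 8.28 CPM, and of the P3 clusters, number 23 held 17.4 CPM and number 29 had no Slco2a1 UMI in 654 cells. Slco2a1 was also called lower in erythroid-like and neutrophil-like cells (log2 fold changes -1.92 and -1.80), where its mean was under 1 CPM at both stages. There it passed the filter on low counts through its E16.5 counts, so these 2 calls carry little weight.

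**Figure D3:**
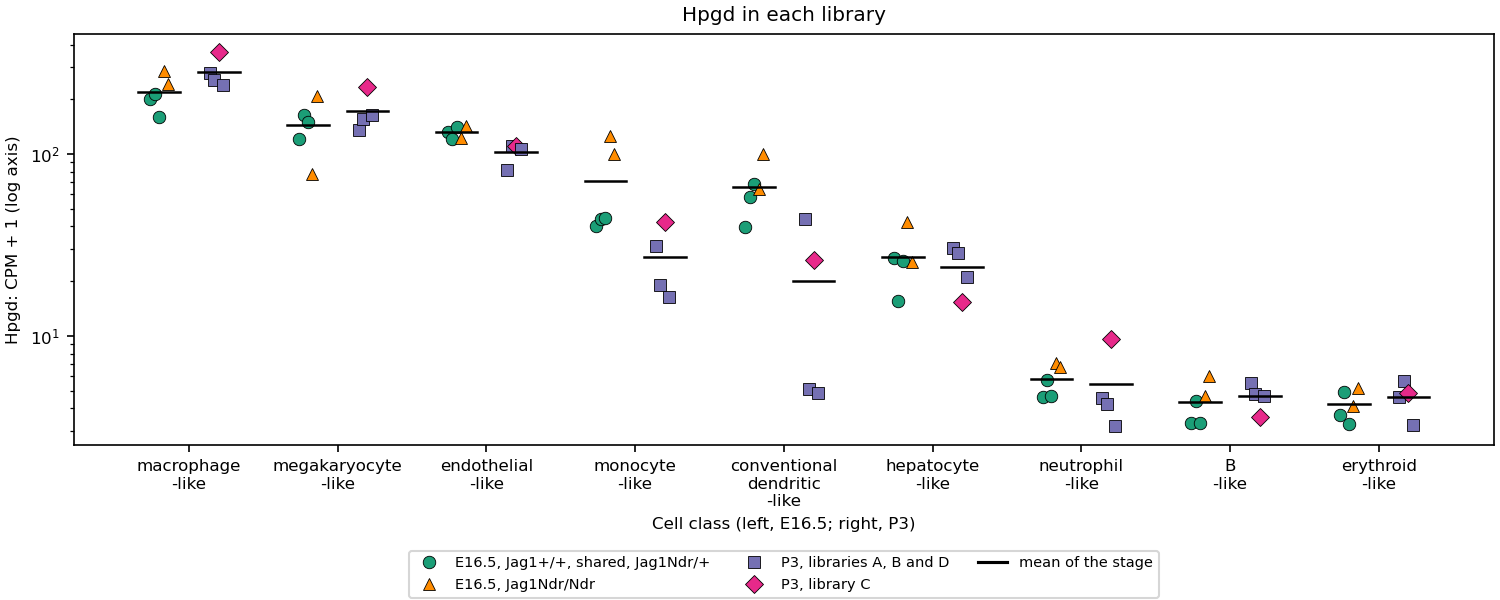
Hpgd level (CPM + 1, log axis) in each library, 1 point per library, for the 9 classes tested between the stages, with triangles for the Jag1Ndr/Ndr libraries at E16.5, diamonds for P3 library C and a line at the mean of the stage. In monocyte-like cells both Jag1Ndr/Ndr libraries (125 and 99.4 CPM) lie above the other 3 E16.5 libraries (39.2 to 43.6 CPM) and above all P3 libraries (15.3 to 41.3 CPM).

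Hpgd was highest in macrophage-like cells at both stages, at 220 ± 47.0 CPM at E16.5 (SD, n = 5) and 283 ± 54.5 CPM at P3 (SD, n = 4). Megakaryocyte-like cells followed with 143 ± 48.6 and 171 ± 43.2 CPM, and endothelial-like cells with 131 ± 10.1 and 102 ± 13.9 CPM. At E16.5 megakaryocyte-like cells did not differ from macrophage-like or endothelial-like cells beyond their spread, while macrophage-like cells lay above endothelial-like cells without overlap. Monocyte-like (69.9 ± 39.4 CPM) and conventional dendritic-like cells (65.0 ± 21.9 CPM) averaged less than endothelial-like cells and were not apart from each other. In Jag1Ndr/Ndr replicate 1, however, monocyte-like cells held 125 CPM and endothelial-like cells 122 CPM, so these 2 classes overlapped. Hepatocyte-like cells held 26.3 ± 9.73 CPM, and neutrophil-like, B-like, erythroid-like and basophil and mast-like cells 1.52 to 4.78 CPM. The macrophage-like clusters themselves ranged from 112 to 366 CPM at E16.5 (2 clusters) and from 66.9 to 366 CPM at P3 (5 clusters).

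Between the stages, Hpgd was lower at P3 in 3 of the 9 classes tested and higher in none. These fits include the homozygous E16.5 libraries for whose values Hpgd was chosen, so this count is a description. In conventional dendritic-like cells it was at 38.5, 57.2, 67.1, 63.1 and 98.9 CPM at E16.5 and at 42.8, 4.13, 25.2 and 3.88 CPM in libraries A to D. Library A overlapped the E16.5 values, and libraries B and D were the lowest. The log2 fold change was -1.74 ± 0.461 (SE; edgeR adjusted p = 0.00614) and ran from -2.58 to -1.44 over the alternatives. This is the class with plasmacytoid dendritic markers at the level of its own markers at E16.5 and far below them at P3. The P3 plasmacytoid dendritic-like cells held 12.9, 10.8, 40.4 and 13.2 CPM of Hpgd in libraries A to D. The part of the make-up in the Hpgd difference was not tested.

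In monocyte-like cells Hpgd was at 39.2, 42.8, 43.6, 125 and 99.4 CPM at E16.5 and at 30.4, 18.1, 41.3 and 15.3 CPM at P3. The 2 homozygous libraries, for whose high values Hpgd was chosen, were the highest at E16.5. The highest P3 library, C, lay above the lowest E16.5 library. The stage test uses the same homozygous values, so its p is not independent support. No alternative left out both homozygous libraries. The log2 fold change was -1.47 ± 0.392 (SE; edgeR adjusted p = 0.00811). In endothelial-like cells it was at 132, 120, 139, 122 and 142 CPM at E16.5 and at 81.2, 110, 110 and 106 CPM at P3, without overlap (log2 fold change -0.52 ± 0.146, SE; edgeR adjusted p = 0.00905). The endothelial call was lost with library sizes only (log2 fold change -0.37, edgeR adjusted p = 0.0767) and with libraries A and B left out (-0.52, adjusted p = 0.0507). In macrophage-like cells Hpgd was at 201, 213, 158, 285 and 241 CPM at E16.5 and 279, 253, 361 and 239 CPM at P3. These overlapped, and the fitted log2 fold change was -0.11 ± 0.191 (SE; edgeR adjusted p = 0.659), or 0.37 with library sizes only.

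At E16.5, in the contrast from which Hpgd was chosen, its fitted log2 difference between the 2 Jag1Ndr/Ndr libraries and the 3 others was above 0 in 9 of 10 classes. The median over all pairs of gene and class was -0.00. The classes come from the same libraries, so they are not separate repeats. Both homozygous libraries lay above the others in 4 classes, the B-like, macrophage-like, monocyte-like and neutrophil-like cells, beside 4.51% of all pairs of gene and class. The B-like values (3.66 and 5.03 against 2.34, 3.42 and 2.34 CPM) were near the 2.28 to 4.20 CPM of erythroid-like cells, the background for free RNA. The difference was largest in monocyte-like cells, where the homozygous libraries held 125 and 99.4 CPM and the others 39.2, 42.8 and 43.6 CPM (log2 difference 1.40 ± 0.167, SE; 1.22 to 1.56 over the alternatives). In macrophage-like cells the values were 285 and 241 CPM against 201, 213 and 158 CPM (0.50 ± 0.213), and in neutrophil-like cells 6.07 and 5.77 CPM against 3.64, 4.75 and 3.68 CPM. Of the neutrophil-like clusters, cluster 28 (733 cells, led by Fcnb and Elane) held 216 of the Hpgd UMIs, at 24.3 and 18.0 CPM in the homozygotes and 13.1, 11.5 and 13.5 CPM in the others, while the other clusters averaged 2.32 to 6.07 CPM. In endothelial-like cells they overlapped, with a log2 difference of -0.02 ± 0.206.

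The share of monocyte-like cells with a Hpgd UMI was 28.5%, 25.7% and 28.4% in the 3 other libraries and 48.6% and 49.4% in the homozygous libraries, at median depths of 12160 to 16218 UMIs per cell. After each cell was thinned to 2000 UMIs, the shares were 8.33%, 7.91% and 8.54% against 18.2% and 14.8%, while erythroid-like cells, which serve as background for free RNA, had 0.606% to 0.957%. Macrophage markers in the monocyte-like cells overlapped between the genotypes (137 to 223 CPM in the others and 130 to 264 CPM in the homozygotes). Neutrophil markers were lower in the homozygotes (6917.9 to 7689.5 against 9132.3 to 10627.0 CPM), as were mesenchymal markers (8.99 to 9.95 against 11.1 to 36.2 CPM), and plasmacytoid dendritic markers were higher (184 to 274 against 129 to 146 CPM). The part of these in the Hpgd difference was not tested. The 3 nearest tested genes on either side of Hpgd had log2 differences of -0.24 to 0.30 in the same cells, and of these Aga, which encodes a lysosomal enzyme, also had both homozygous libraries above the others (16.2 against 13.1 CPM on average).

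Over all 10 genes, 72 pairs of gene and class passed the filter in this contrast. Both homozygous libraries lay above the others in 7 pairs and below them in 7, beside 4.51% and 5.84% of the 109875 pairs tested over all genes. Of the 7 pairs above, 4 were Hpgd itself; in the 62 pairs of the other genes it was 3 above and 7 below. Over all genes edgeR called 9.10e-04% of pairs. Since the pathway was picked with the Hpgd values in view, nothing is read from these counts.

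At P3, libraries C and D are the only ones that each occur under 1 genotype label, so they were set side by side without a test (1 library each; Poisson intervals of 95% that cover counting error only). Of 130 pairs of gene and class, 68 had at least 10 UMIs in the 2 libraries together. Of these, the intervals did not overlap in 18 with C higher and in 5 with D higher, beside 6.63% and 9.96% of the 120104 pairs over all genes with as many UMIs. Hpgd was higher in C in 6 classes, among them macrophage-like cells (361 CPM, interval 340 to 383, against 239 CPM, 220 to 259) and monocyte-like cells (41.3 CPM, 35.5 to 47.7, against 15.3 CPM, 10.8 to 21.1). Alox5ap was higher in C in 7 classes. Ptgs1 and Hpgds in macrophage-like cells were higher in D (469 against 404 CPM and 155 against 122 CPM). Library C had no cell under 2000 UMIs in a class, while D had (803 of 1745 B-like cells, for example), and the part of that in these differences was not tested.

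**Figure D4:**
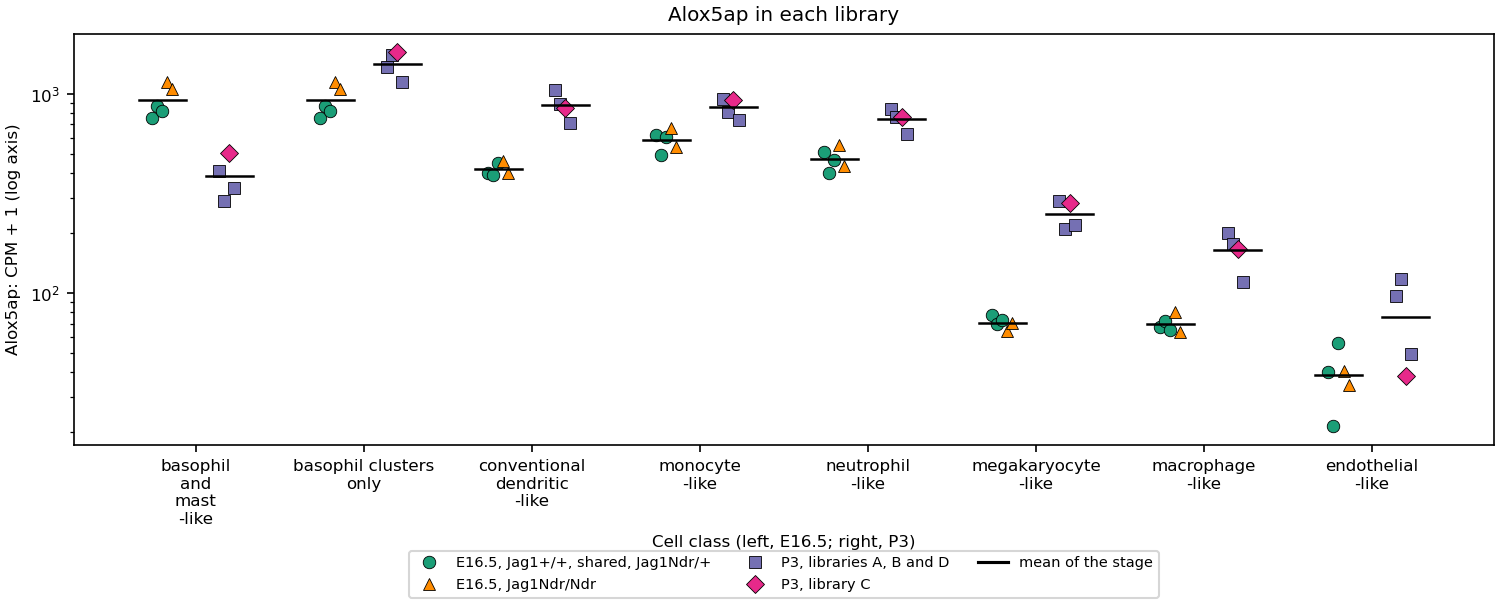
Alox5ap level (CPM + 1, log axis) in each library, 1 point per library, for the 7 classes called between the stages and for the basophil-led clusters alone, with E16.5 on the left and P3 on the right and a line at the mean of the stage. It was higher at P3 in megakaryocyte-like (208 to 287 against 63.4 to 75.9 CPM) and conventional dendritic-like cells (709 to 1047.1 against 391 to 459 CPM), and lower in basophil and mast-like cells (289 to 501 against 757 to 1148.9 CPM).

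On the leukotriene side, Alox5ap, the helper protein of 5-lipoxygenase, was found across the myeloid classes and was called higher at P3 in 6 of 10 classes and lower in 1. At E16.5 it was highest in basophil and mast-like cells at 930 ± 167 CPM (SD, n = 5), followed by monocyte-like (584 ± 69.8 CPM), neutrophil-like (470 ± 59.3 CPM) and conventional dendritic-like cells (418 ± 31.9 CPM). Basophil and mast-like cells lay above monocyte-like cells without overlap, while monocyte-like and neutrophil-like, and neutrophil-like and conventional dendritic-like cells, did not differ beyond their spread. At P3 the order of whole classes began with conventional dendritic-like (873 ± 139 CPM, SD, n = 4), monocyte-like (851 ± 96.7 CPM) and neutrophil-like cells (745 ± 87.7 CPM). Their ranges overlapped (709 to 1047.1, 737 to 935 and 625 to 836 CPM). The P3 basophil-led cluster alone lay above them at 1414.4 ± 212 CPM.

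The firmest rise was in megakaryocyte-like cells, where Alox5ap was at 75.9, 68.5, 71.6, 63.4 and 69.1 CPM at E16.5 and at 287, 208, 282 and 218 CPM at P3 (log2 fold change 1.73 ± 0.180, SE; edgeR adjusted p = 5.1e-06). In conventional dendritic-like cells it was at 396, 391, 446, 459 and 399 CPM and at 1047.1, 889, 846 and 709 CPM (0.97 ± 0.164, SE; edgeR adjusted p = 2.5e-04). In this class, whose make-up differed as given for Ptgs2, the E16.5 level was close to the 347 to 468 CPM of the P3 plasmacytoid dendritic-like cells. In macrophage-like cells the means were 68.5 ± 6.47 and 163 ± 36.7 CPM (0.78 ± 0.204, SE; edgeR adjusted p = 0.00773). The stages did not overlap in these 3 classes. Cell depth in megakaryocyte-like cells varied between libraries as given for Ptgs1. The macrophage call was lost with libraries A and B left out (edgeR adjusted p = 0.0913). The macrophage-like clusters held 27.7 and 125 CPM of Alox5ap at E16.5 and 32.1 to 212 CPM at P3. The part of their shares in the rise was not tested.

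The rises in monocyte-like cells (584 to 851 CPM, log2 fold change 0.43 ± 0.144, edgeR adjusted p = 0.0253), neutrophil-like cells (470 to 745 CPM, 0.50 ± 0.182, adjusted p = 0.0405) and endothelial-like cells (37.5 to 74.3 CPM, 0.90 ± 0.355, adjusted p = 0.0491) were weaker. They passed in 11, 10 and 7 of 19 alternatives. All 3 were lost without any one of Jag1+/+ replicate 1, the shared library, Jag1Ndr/Ndr replicate 2 or library A. The monocyte-like and neutrophil-like calls were also lost without library C, the neutrophil-like and endothelial-like calls without library B, and the endothelial-like call without Jag1Ndr/Ndr replicate 1. In endothelial-like cells, libraries A and B held 95.0 and 116 CPM, libraries C and D 37.2 and 48.3 CPM and the E16.5 libraries 20.4 to 55.0 CPM, so that without A and B the log2 fold change was -0.10 (edgeR adjusted p = 0.877). Neutrophil markers in the endothelial-like cells summed to 2889.5 to 5944.1 CPM at E16.5 and 8650.1 to 21848.2 CPM at P3, and their part in the difference was not tested.

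Basophil and mast-like cells went the other way in the whole class, at 757, 864, 820, 1148.9 and 1059.2 CPM at E16.5 and at 409, 289, 501 and 336 CPM at P3 (log2 fold change -1.55 ± 0.188, SE; edgeR adjusted p = 9.1e-06). This direction depended on the cells counted. In the P3 basophil-led cluster alone Alox5ap was at 1354.9, 1552.4, 1608.4 and 1141.8 CPM, with a log2 fold change of 0.46 ± 0.174 (SE; edgeR adjusted p = 0.0393), the opposite direction. The stage effects of the 6 classes that were higher exceeded that of the whole basophil and mast-like class by 1.83 to 3.10 in log2(CPM + 1). With the basophil-led cluster, the differences for endothelial-like, monocyte-like and neutrophil-like cells were 0.28, -0.07 and 0.06.

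Alox5, 5-lipoxygenase itself, was highest in basophil and mast-like cells at E16.5 and, by whole classes, in neutrophil-like cells at P3. The P3 basophil-led cluster alone, at 154 ± 45.1 CPM (SD, n = 4), lay above the neutrophil-like cells. In the whole basophil and mast-like class Alox5 was at 138, 225, 88.2, 93.3 and 253 CPM at E16.5 and at 21.3, 17.9, 41.3 and 19.7 CPM at P3 (log2 fold change -2.95 ± 0.314, SE; edgeR adjusted p = 2.7e-06). As for Alox5ap this rested on the P3 progenitor-led cluster: the basophil-led cluster held 120, 176, 206 and 113 CPM, and the log2 fold change was -0.20 ± 0.283 (SE; edgeR adjusted p = 0.586). Neutrophil-like cells held 41.1 ± 7.67 CPM at E16.5 (SD, n = 5) and 33.8, 70.1, 54.6 and 38.0 CPM at P3, a difference that was not called (log2 fold change 0.11 ± 0.189, SE; edgeR adjusted p = 0.662).

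Lta4h, which completes leukotriene B4, was found in every class and was highest in neutrophil-like cells. There it was at 159, 200, 104, 145 and 113 CPM at E16.5 and at 222, 250, 211 and 256 CPM at P3, without overlap (log2 fold change 0.56 ± 0.130, SE; edgeR adjusted p = 0.00390). The neutrophil-like clusters held 8.47 to 180 CPM of Lta4h at E16.5 and 8.88 to 340 CPM at P3. For Alox5ap they held 72.4 to 707 CPM and 233 to 2026.3 CPM. The part of cluster make-up in any stage difference of neutrophil-like cells was not tested. Lta4h was also higher in basophil and mast-like cells (39.0 ± 5.58 to 69.6 ± 5.35 CPM, 0.59 ± 0.166, edgeR adjusted p = 0.00811), a call lost with the basophil-led cluster alone (60.5 ± 3.85 CPM, edgeR adjusted p = 0.0522), although the log2 fold change there was still 0.50 ± 0.203 (SE). It was lower in macrophage-like cells (11.7 to 24.3 CPM at E16.5 and 11.0 to 14.7 CPM at P3, -0.91 ± 0.205, edgeR adjusted p = 0.00326) and conventional dendritic-like cells (34.6 ± 10.4 to 22.7 ± 1.99 CPM, -0.69 ± 0.214, edgeR adjusted p = 0.0159). In macrophage-like cells the CPM values overlapped and the call was lost with library sizes only (log2 fold change -0.45, edgeR adjusted p = 0.172). In conventional dendritic-like cells the call was lost without libraries A and B (edgeR adjusted p = 0.0566), with log2 fold changes of -0.83 to -0.53 over the alternatives. The make-up of this class differed between the stages, as given for Ptgs2. The stage effect in neutrophil-like cells exceeded that in macrophage-like cells by 1.11 and that in conventional dendritic-like cells by 1.28 in log2(CPM + 1).

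Ltc4s, the synthase of leukotriene C4, was at the detection limit in most classes. Macrophage-like cells held 3.60, 4.14, 5.11, 2.25 and 11.5 CPM at E16.5 and 8.77, 9.22, 4.93 and 13.3 CPM at P3, which overlapped and were not called (log2 fold change 0.24 ± 0.403, SE; edgeR adjusted p = 0.658). In basophil and mast-like cells, a textbook source of cysteinyl leukotrienes, it stayed below the filter at 0 to 4.47 CPM at E16.5 and 1.69 to 3.21 CPM at P3. All 37 P3 UMIs came from the progenitor-led cluster (2.93 CPM), and the basophil-led cluster had 0 UMIs in 220 cells. Megakaryocyte-like cells held 3.99, 2.35, 2.21, 1.84 and 0.566 CPM at E16.5 and 5.35, 2.57 and 4.70 CPM in P3 libraries A, B and D, with the highest level in C (17 UMIs in 48 cells, interval 8.14 to 22.4 CPM); the stages overlapped.

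**Figure D5:**
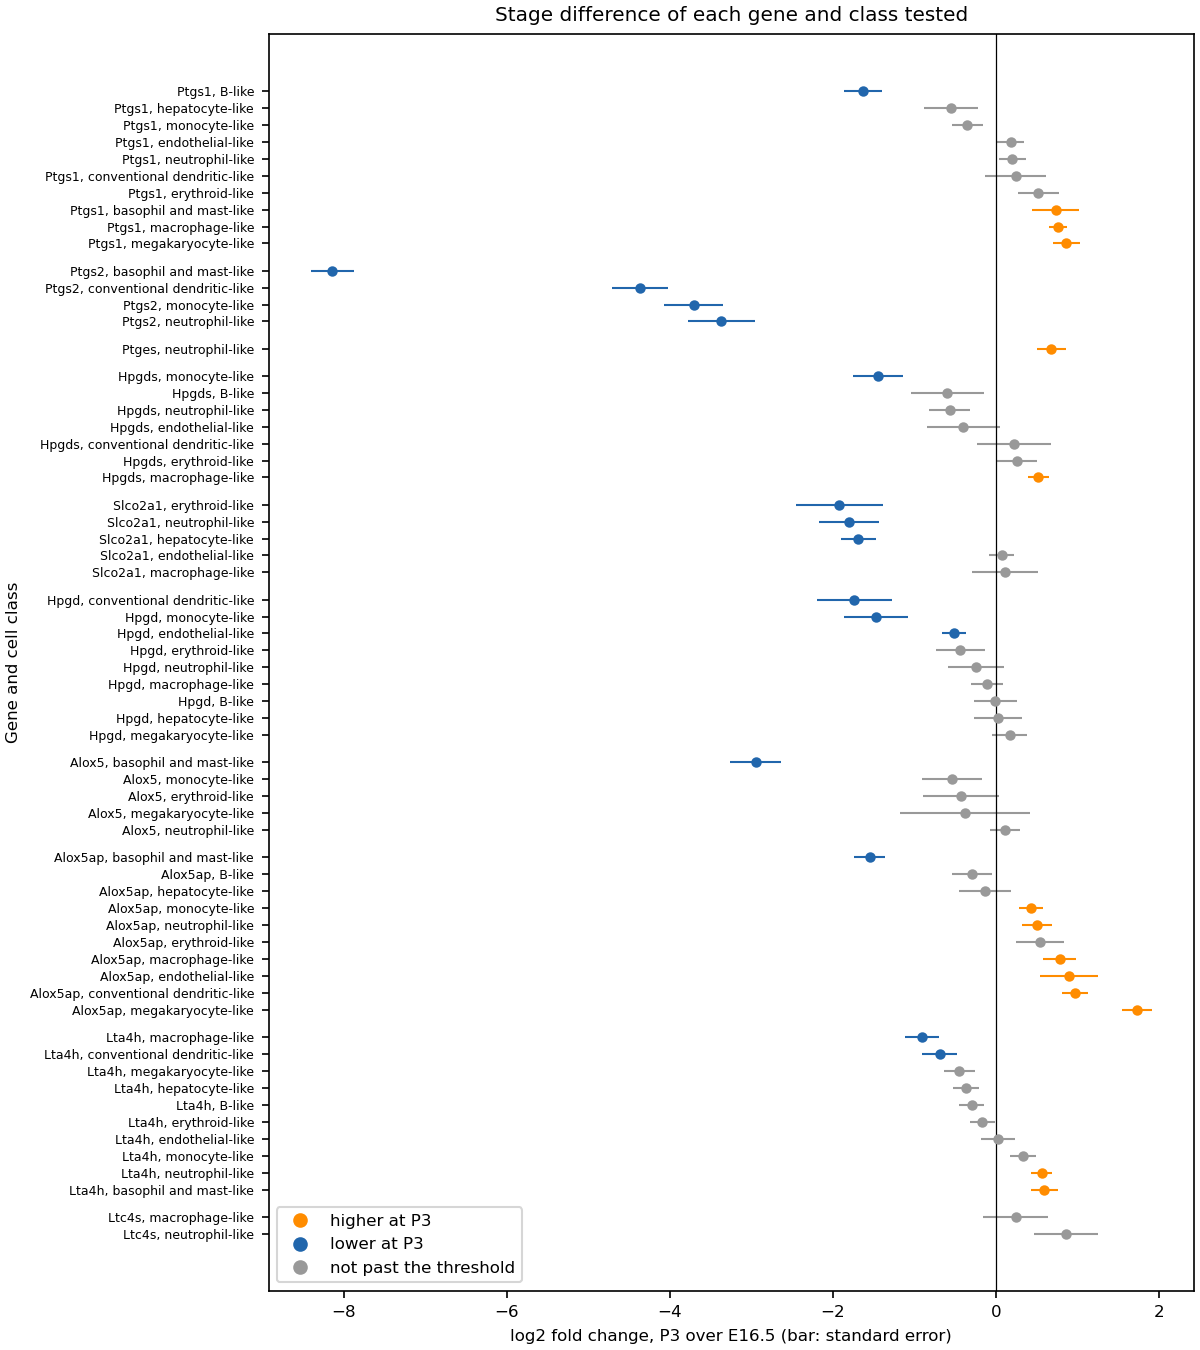
Log2 fold change of P3 against E16.5 (edgeR, with bars of 1 SE) for the 63 tested pairs of gene and class, grouped by gene, with called pairs in orange (higher at P3) or blue (lower) and the others in grey. Ptgs2 in basophil and mast-like cells lies farthest from 0 at -8.14, and Alox5ap in megakaryocyte-like cells is the highest value at 1.73.

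Of 39 other genes of the 2 pathways, 30 were tested, in 191 pairs of gene and class. At P3, 55 pairs were higher and 42 lower, which is 50.8% called beside the 47.0% of all pairs, and the median log2 fold change was 0.18. Alox12, the platelet lipoxygenase, was higher in megakaryocyte-like cells (225 ± 71.1 to 1275.0 ± 452 CPM, log2 fold change 2.42 ± 0.263, edgeR adjusted p = 7.3e-06). In basophil and mast-like cells Alox15, another lipoxygenase, was lower (122 ± 32.8 to 19.9 ± 10.7 CPM, -2.89 ± 0.294, edgeR adjusted p = 1.8e-06), in the class whose make-up differed. Conventional dendritic-like cells had more Ltb4r1, a leukotriene B4 receptor (8.34 ± 3.03 to 53.6 ± 3.76 CPM), and Cotl1, an actin-binding partner of 5-lipoxygenase (130 ± 16.1 to 445 ± 89.4 CPM), and less Ptger4, a prostaglandin E2 receptor (67.6 ± 13.8 to 20.0 ± 4.05 CPM), at edgeR adjusted p of 6.6e-07, 7.8e-07 and 2.0e-06, again in a class whose make-up differed between the stages.

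Cbr1, a carbonyl reductase that acts on prostaglandins, was higher in hepatocyte-like cells (16.1 ± 1.96 to 157 ± 104 CPM, log2 fold change 3.46 ± 0.397, edgeR adjusted p = 2.0e-05). Its P3 libraries ran from 45.9 to 255 CPM, all above the E16.5 range of 14.2 to 19.0 CPM. Mgst2, a glutathione transferase able to make leukotriene C4, was lower in B-like cells (72.9 ± 14.3 to 18.4 ± 5.87 CPM, -2.18 ± 0.227, edgeR adjusted p = 1.6e-05). The related Mgst3 was lower in 10 of 10 classes and most in macrophage-like cells (284 ± 19.3 to 25.1 ± 17.5 CPM, -4.05 ± 0.402, edgeR adjusted p = 1.1e-05). Its highest level was in erythroid-like cells, at 311 ± 43.3 CPM at E16.5 and 250 ± 43.6 CPM at P3. The erythroid markers of the macrophage-like cells, given above, ran lower at P3 with overlapping ranges. Their part in the Mgst3 difference was not tested.

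By the correlation of log2(mean CPM + 1) over the 24 points of class and stage, which share libraries, the genes most like Hpgd among 12081 were Kcnk6, a potassium channel (r = 0.851), Clec1b, a lectin receptor of platelets and macrophages (0.839), Rasgef1b (0.821), P2ry12, an ADP receptor of platelets (0.821), and Dusp3, a phosphatase (0.817). Of the other 7 genes at 10 CPM or more in some class, Ptgs1 (0.674) and Hpgds (0.637) were the most like Hpgd, and Lta4h (-0.262) the least. The nearest to Ptgs1 were Hs1bp3 (0.896) and Rhob (0.890), to Ptgs2 Osm (0.817) and Naip6 (0.816), to Hpgds Kcnk13 (0.935) and Abcg3 (0.915), and to Slco2a1 Nr5a2 (0.965) and Gpr182 (0.955). On the leukotriene side they were Far2 (0.925) and Ap3s1 (0.872) for Alox5, Ncf1 (0.921) and Fes (0.917) for Alox5ap, and Tmem216 and Mettl9 (0.919 each) for Lta4h.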

How the data were processed

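The deposited matrices hold raw UMI counts per gene and barcode, as the authors' counting software wrote them. The file headers name software versions 3.0.2 (P3) and 3.1.0 (E16.5), while the submitters' processing notes name Cell Ranger 2.1.1, R 4.1.2, Seurat and mm10. The aligner settings are not given in the sources used here.

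Barcodes under 1000 UMIs or over 15% mitochondrial UMIs were dropped. Scrublet, run on each library through scanpy 1.11.5, marked doublets (9.86% to 13.4% of cells at E16.5 and 4.11% to 9.5% at P3), which were removed. Each stage was clustered with the Leiden method (igraph 0.11.9, resolution 3, 2000 variable genes, 30 components, 15 neighbours). Clusters were named from marker lists with at least 3 detected markers, by the list with the most markers among their 10 leading genes. They stayed unnamed where lists tied closely or where a single leading marker stood against a higher-scoring list. With no leading marker, a low score or shallow depth also left them unnamed. Clusters of over 50% doublets were left out. The progenitor-led P3 cluster of 868 cells kept the basophil and mast name under these rules. A class entered a fit with at least 20 cells in every library.

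Counts were summed per class and library and tested with edgeR 4.0.16 in R 4.3.3 (glmQLFit and glmQLFTest, TMM, filterByExpr), with Benjamini-Hochberg adjustment over all pairs of class and gene at 0.05; SEs are the log2 fold change divided by the root of the F statistic. DESeq2 1.42.0 was an alternative. Differences between classes picked for opposite calls were put through an exact permutation test (scipy 1.17.1), read as sizes only. The labels describe 2 individuals per genotype and stage, so libraries were taken as separate animals. Precision is limited by counting for the low genes and by the 9 libraries for the rest. The P3 matrices of Jag1Ndr/+ replicate 2 and Jag1Ndr/Ndr replicate 2 were left out because their barcodes repeat others. The edgeR fit was run on simulated counts with known fold changes for monocyte-like and neutrophil-like cells. That simulation changed a small set of genes, evenly in both directions, while 47.0% of pairs were called in the stage fit. It therefore does not bear on the choice of scaling or on the calls reported here. The 10 genes, the pathway list and the marker lists were chosen with earlier results of these data known. All 10 genes are named; of other pathway genes, the 8 with the largest called fold change at 20 CPM or more.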

Additional observations from a re-analysis of the deposited data

Results flagged for a closer look

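In 9 of 89 groups of 4 or 5 libraries with a mean of at least 10 CPM, 1 library stood apart from the rest of its stage by Dixon's test; chance marks about 1 in 20 groups. At E16.5, Ptgs1 in mesenchymal-like cells was 74.6 CPM in Jag1Ndr/Ndr replicate 1 (15.6 to 28.3 CPM in the others), and Hpgds in macrophage-like cells was 39.8 CPM in Jag1Ndr/+ replicate 1 (63.9 to 73.2 CPM).

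At P3, library A was low for Hpgd in endothelial-like cells (81.2 CPM, others 106 to 110 CPM). Library B was low for Ptgs1 in megakaryocyte-like cells (218 CPM, others 285 to 298 CPM) and for Alox5ap in mesenchymal-like cells (32.8 CPM, others 117 to 131 CPM). The latter rests on few counts, with 9 UMIs in B and 7 UMIs in 17 cells of D. Library C was high for Hpgd in plasmacytoid dendritic-like cells (40.4 CPM from 14 UMIs, others 10.8 to 13.2 CPM) and for Alox5 in basophil and mast-like cells (41.3 CPM, others 17.9 to 21.3 CPM). Library D was low for Lta4h in T and NK-like cells (32.1 CPM, others 42.6 to 44.5 CPM) and high in plasmacytoid dendritic-like cells (66.1 CPM, others 52.0 to 53.0 CPM).

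For 4 genes, 14 pairs of classes were called in opposite directions between the stages. Because these pairs were picked by their calls, the permutation test on the same libraries gave the smallest p that the 126 splits allow (0.0159, exact, two-sided) for every pair and adds no support; the differences in log2(CPM + 1) are given as sizes. For Ptgs1 the effects in basophil and mast-like, macrophage-like and megakaryocyte-like cells exceeded that in B-like cells by 2.42, 2.56 and 2.31, and for Hpgds macrophage-like exceeded monocyte-like cells by 2.11. For Alox5ap the effects in conventional dendritic-like, endothelial-like, macrophage-like, megakaryocyte-like, monocyte-like and neutrophil-like cells exceeded that in basophil and mast-like cells by 2.34, 2.17, 2.50, 3.10, 1.83 and 1.95. For Lta4h, basophil and mast-like cells exceeded conventional dendritic-like and macrophage-like cells by 1.37 and 1.21, and neutrophil-like cells exceeded the same 2 by 1.28 and 1.11. In 3 of the pairs with basophil and mast-like cells the difference no longer reached that p, and in 1 more it changed sign, when the basophil-led P3 cluster stood for the class.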

How the results depend on the processing

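Of the alternatives to the stage fold changes of all 63 tested pairs, 1115 stayed on the same side of the threshold, 46 lost the call, 20 gained it (in 12 pairs) and 2 reversed. Reversals are counted only where the pair was called in either fit; of the uncalled Hpgd pairs, hepatocyte-like cells changed sign in 9 alternatives, B-like cells in 7, macrophage-like and neutrophil-like cells in 3 each, and erythroid-like and megakaryocyte-like cells in 1 each. The 2 reversals were Alox5ap in basophil and mast-like cells with the basophil-led cluster alone (0.46) and in endothelial-like cells without libraries A and B (-0.10). Of the class differences, 3 lost the call and 1 reversed, Alox5ap in monocyte-like against basophil and mast-like cells with the basophil-led cluster alone (-0.07). With library sizes only, chosen after seeing the data, the median log2 fold change of all pairs moved from 0.01 to 0.18, and 63.9% of called pairs were higher at P3 in place of 50.1%, with 16 pairs of the 10 genes higher and 15 lower. In the genotype contrast the count over all genes, 1, became 2 with library sizes only, 18 with DESeq2, 469 without the filter on low counts and 0 at a mitochondrial share of at most 5%, and 0 to 95 when a replicate was left out. Among the 10 genes, Hpgd included, the count of 0 (8 at an unadjusted p under 0.05) supports nothing and became 1 with DESeq2 and 1 without the filter, and 0 to 1 when a replicate was left out. The replicate numbers did not pair the samples (correlation of deviations -0.301 to 0.193 for equal numbers and -0.202 to 0.238 for unequal ones); with a replicate block the stage fit called 46130 pairs in place of 47376 and 28 of the 10 genes' pairs in place of 29, and the genotype fit called 5 over all genes and 1 among the 10. Depth limits Ptges and Ltc4s, whose mean stayed under 10 CPM in every class.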
